A study of Mus musculus with 6 samples.

Results

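Enteroendocrine cells are the hormone-secreting cells of the gut lining, and 10 genes that define their products were followed here in mouse distal colon, of 19844 genes in the expression table. They were chosen by symbol and function: 7 hormone precursors (Gcg, Pyy, Insl5, Sct, Cck, Nts and Sst), 2 granins (Chga and Chgb) and Tph1, the enzyme that starts serotonin synthesis. All 10 symbols were found, each on 1 row. The tissue came from 3 wild-type and 3 ChREBP knockout mice, all C57BL6, all given azoxymethane (AOM), a carcinogen, with dextran sulfate sodium (DSS), which injures the colon lining, and all taken at day 17. Both groups carried the AOM/DSS treatment, so no value here describes an untreated colon. ChREBP, the product of Mlxipl, is a transcription factor that responds to glucose. The labels do not say in which cells it was deleted, which part of the gene was removed, or the age of the mice. The series asks whether ChREBP acts in colon carcinogenesis, and its design holds 1 comparison, knockout against wild type.

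Enteroendocrine cells are scattered singly among absorptive and goblet cells and arise from the same crypt stem cells. In the distal colon the main kinds are L cells, which store peptide YY, the glucagon-like peptides cut from proglucagon and insulin-like peptide 5, enterochromaffin cells, which make most of the body's serotonin, and D cells, which make somatostatin. Granins help pack these products into dense-core granules and serve as general markers of the lineage. ChREBP has been studied in L cells as an activator of the proglucagon gene in response to glucose, and it binds DNA with its partner Mlx at paired E-boxes.

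The stretches just before the start sites of 7 of the genes are shown because the regulator under study binds DNA and because cyclic AMP response elements are textbook elements of hormone and granin genes. Each is the 120 bases before the first listed RefSeq start in GRCm38.p6, an older build than the mm39 named for the deposited values, written in the direction of transcription. Capitals mark, on either strand, the cyclic AMP response element TGACGTCA or its shorter core TGACG, the E-box CACGTG, and the TATA box TATAAA.
Gcg: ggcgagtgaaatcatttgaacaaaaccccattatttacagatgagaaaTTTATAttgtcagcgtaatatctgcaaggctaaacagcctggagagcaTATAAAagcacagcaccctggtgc
Insl5: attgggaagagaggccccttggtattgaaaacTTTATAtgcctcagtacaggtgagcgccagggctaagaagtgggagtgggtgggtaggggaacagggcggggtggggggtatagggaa
Pyy: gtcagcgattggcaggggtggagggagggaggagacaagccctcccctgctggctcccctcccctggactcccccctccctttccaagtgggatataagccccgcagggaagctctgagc
Chga: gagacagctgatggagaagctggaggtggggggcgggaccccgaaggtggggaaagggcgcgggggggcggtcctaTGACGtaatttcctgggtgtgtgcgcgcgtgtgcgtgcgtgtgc
Chgb: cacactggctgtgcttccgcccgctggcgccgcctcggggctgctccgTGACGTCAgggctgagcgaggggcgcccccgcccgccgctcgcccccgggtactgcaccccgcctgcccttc
Sst: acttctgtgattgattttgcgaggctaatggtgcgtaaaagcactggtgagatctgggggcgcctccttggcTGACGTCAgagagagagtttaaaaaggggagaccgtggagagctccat
Cck: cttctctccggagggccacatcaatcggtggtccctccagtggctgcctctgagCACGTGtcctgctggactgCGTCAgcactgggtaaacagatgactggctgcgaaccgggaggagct
Gcg (chr2:62483654-62483773), Insl5 (chr4:103027272-103027391), Pyy (chr11:102107833-102107952), Sst (chr16:23890845-23890964) and Cck (chr9:121495695-121495814) lie on the minus strand, and Chga (chr12:102554821-102554940) and Chgb (chr2:132781522-132781641) on the plus strand.

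Over the 250 bases before the start, counted back from 1 at the base next to it, the full element TGACGTCA was in 2 of the 10 genes, at bases 48 to 41 in Sst and 72 to 65 in Chgb. It was in 1.55% of all 32851 promoter windows of that length. The core TGACG, which every full element contains, was in 6 of 10 (Cck, Chga, Chgb, Nts, Sst and Tph1) and in 17.8% of all windows. The E-box CACGTG was in Cck alone among the 10, at bases 66 to 61, and in 6.02% of all windows. An exact pair of such E-boxes with 5 bases between them was in 0 of 32851. That search could therefore not set any gene apart, and imperfect pairs were not searched. The TATA box letters were, on either strand, in Gcg, Insl5 and Sct, and in 12.4% of all windows. In Insl5 they were on the opposite strand only, at bases 88 to 83. These are matches of letters in a short window, and nothing about binding follows from them.

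Expression was given as FPKM, read fragments scaled to transcript length and library depth, so levels can be compared between genes. The FPKM total lay between 439107 and 478500 per library, and depth, estimated from short genes, between 17700000 and 18475000 reads. The labels call all 6 mice female, yet the Y-linked gene Ddx3y was between 9.51 and 12.11 FPKM and Xist, the RNA of the silenced X chromosome, between 0.02 and 0.04, so the libraries go against that label in both groups. Mlxipl read 5.84, 7.49 and 7.27 FPKM in wild type and 3.40, 5.66 and 5.04 in knockout, so the knockout libraries were all lower, as for 4.14% of genes tested, but still held the transcript (limma adjusted p = 0.9995). Genes that reached 1 FPKM in at least 3 libraries were tested with limma on log2(FPKM + 1), and 2 of 13247 were called at a Benjamini-Hochberg adjusted p under 0.05. That is 0.0151% of the genes tested.

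None of the 8 enteroendocrine genes that passed the filter was called, and each had a limma adjusted p of 0.9995. A count of 0 stands against that background of 0.0151%, so it sets these genes apart from no others. The groups overlapped for all 8, where they were separate in one direction or the other for 8.67% of genes tested. At an unadjusted limma p under 0.05 there was 1, Tph1, against 3.4% of all genes tested. Of the 8, 7 had negative log2 fold changes of knockout minus wild type and 1 a positive one, with a median of -0.22 beside 0.01 over all genes tested. Without knockout replicate 3 the split was 3 negative and 5 positive and the median was 0.03. Cck and Nts were under the filter and were not tested in this fit. In whole tissue, fewer cells of a type and less RNA per cell cannot be told apart.

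**Figure D1:**
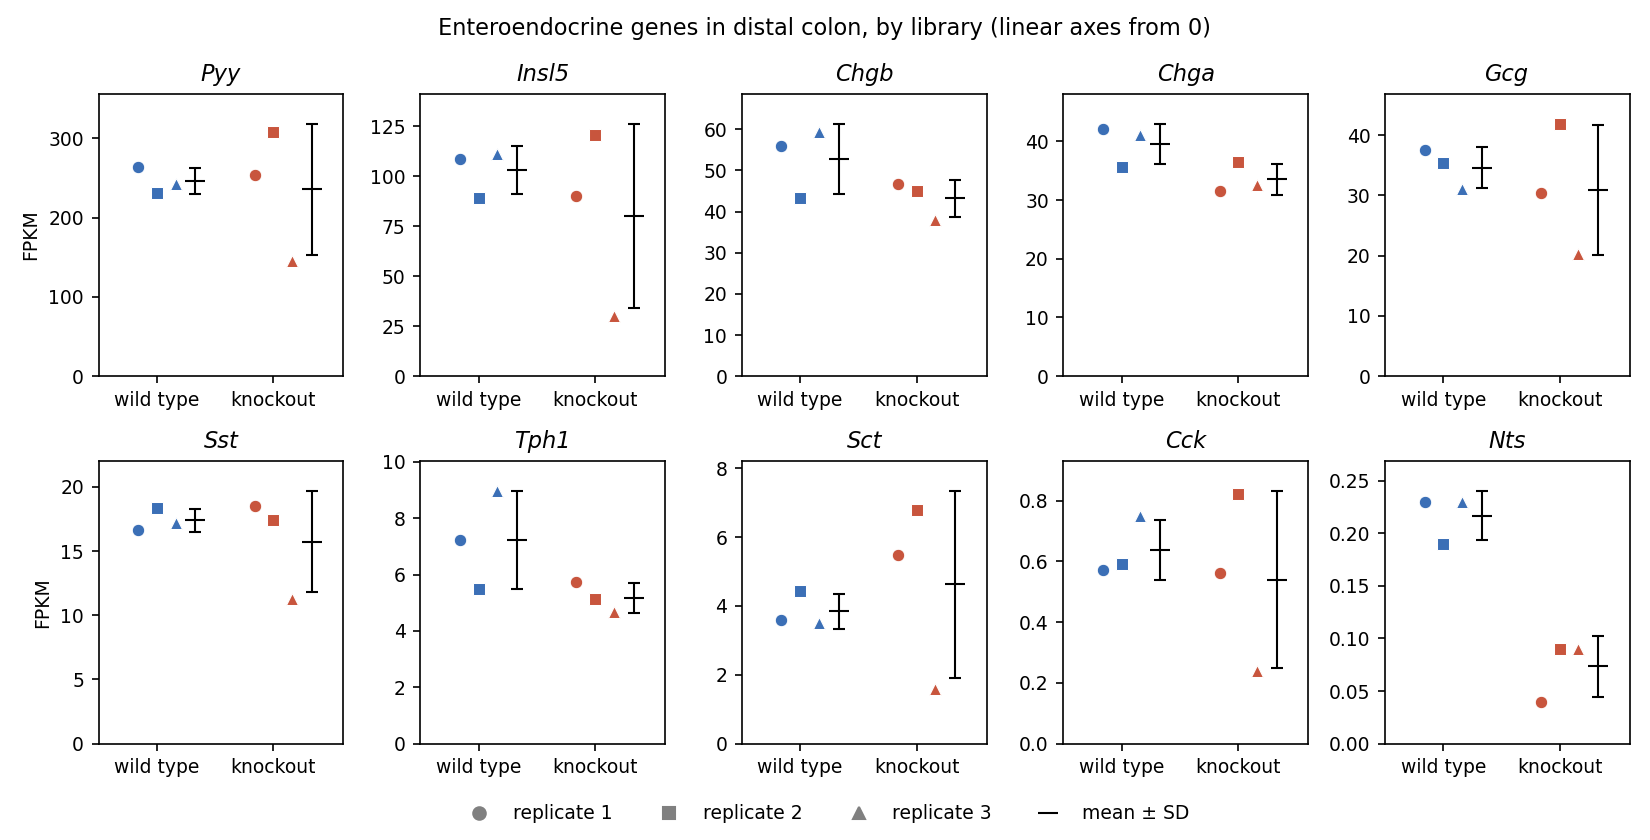
FPKM of each of the 10 genes (linear axes from 0) in wild-type libraries (blue) and knockout libraries (red), with a symbol for each replicate number and the group mean ± SD in black. Knockout replicate 3, the red triangle, is the lowest library in 8 of the 10 panels, and the groups are separate only for Nts, which is under 0.25 FPKM throughout.

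Of the L cell hormones, Pyy and Insl5 had the highest levels of the set and Gcg the fifth. Pyy, the precursor of peptide YY, a hormone that slows gut transit and appetite, read 263.36, 231.56 and 242.19 FPKM in wild-type replicates 1 to 3 and 253.18, 307.98 and 145.53 in knockout replicates 1 to 3. The knockout group held both the highest and the lowest library. Its means were 246 ± 16.2 in wild type and 236 ± 82.6 in knockout (SD, n = 3 each), a log2 fold change of -0.13 (SE 0.25, 95% interval -0.70 to 0.45). Pyy supplied between 47.0% and 52.9% of the summed FPKM of the 10 genes in every library.

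Insl5, a relaxin-family hormone restricted largely to colonic L cells, read 108.67, 89.24 and 110.94 FPKM in wild type and 89.86, 120.55 and 30.13 in knockout. Knockout replicates 1 and 2 lay in and just above the wild-type range, and replicate 3 stood at 29.3% of the wild-type mean. The group means were 103 ± 11.9 and 80.2 ± 46.0, with a log2 fold change of -0.56 (SE 0.44) and the widest interval of the 8, -1.57 to 0.45. Without knockout replicate 3 the log2 fold change of Insl5 was 0.02 and that of Pyy 0.19, both with the opposite sign.

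Gcg, which encodes proglucagon, the source of the glucagon-like peptides in the gut, read 37.60, 35.32 and 31.00 FPKM in wild type and 30.46, 41.90 and 20.34 in knockout. Again the knockout libraries lay on both sides of the wild-type range. The means were 34.6 ± 3.35 and 30.9 ± 10.8, a log2 fold change of -0.21 (SE 0.23, 95% interval -0.74 to 0.32), and 0.05 without knockout replicate 3. The ratio of Gcg to Pyy FPKM was between 0.128 and 0.153 in wild type and between 0.120 and 0.140 in knockout, knockout replicate 3 included at 0.140. The ratio of Insl5 to Pyy was between 0.385 and 0.458 in wild type, 0.355 and 0.391 in knockout replicates 1 and 2, and 0.207 in knockout replicate 3. In that library, then, Gcg kept its proportion to Pyy and Insl5 was at a smaller one.

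Sst, the precursor of somatostatin, a hormone of D cells and some enteric neurons that inhibits other endocrine cells, read 16.66, 18.36 and 17.15 FPKM in wild type and 18.52, 17.43 and 11.25 in knockout. Its wild-type libraries were the tightest of the tested hormones relative to their mean. The log2 fold change was -0.16 (SE 0.17, 95% interval -0.57 to 0.24), and 0.05 without knockout replicate 3. Sct, the precursor of secretin, which stimulates bicarbonate secretion and is also made by enterochromaffin cells, read 3.60, 4.43 and 3.50 FPKM in wild type and 5.49, 6.79 and 1.59 in knockout. Knockout replicates 1 and 2 were above every wild-type library and replicate 3 below every one. Sct had the one positive log2 fold change of the 8, 0.07 (SE 0.37, 95% interval -0.78 to 0.93), which became 0.56 without knockout replicate 3 (limma adjusted p = 0.9994), -0.10 without knockout replicate 1 and -0.24 without knockout replicate 2.

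By the ratio of the highest to the lowest of all 6 libraries, the granins varied less than the hormones. That order rested on knockout replicate 3. Without it Sst, between 16.66 and 18.52 FPKM, varied less than Chga, between 31.50 and 42.07. Chgb, the gene of chromogranin B, read 55.96, 43.22 and 59.31 FPKM in wild type and 46.62, 44.90 and 38.05 in knockout. Wild-type replicate 2 lay among the knockout libraries, so the groups overlapped. The means were 52.8 ± 8.49 and 43.2 ± 4.53, a log2 fold change of -0.28 (SE 0.14, 95% interval -0.60 to 0.05). Chga, the gene of chromogranin A, read 42.07, 35.72 and 41.03 FPKM in wild type and 31.50, 36.56 and 32.56 in knockout. Here 1 pair was out of order, with wild-type replicate 2 just under knockout replicate 2. The means were 39.6 ± 3.41 and 33.5 ± 2.67, a log2 fold change of -0.23 (SE 0.10, 95% interval -0.47 to 0.01).

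Tph1, tryptophan hydroxylase, the rate-limiting enzyme of serotonin synthesis in enterochromaffin cells, read 7.22, 5.49 and 8.96 FPKM in wild type and 5.73, 5.15 and 4.66 in knockout. The groups overlapped through wild-type replicate 2, and the wild-type libraries were the more spread. The means were 7.22 ± 1.74 and 5.18 ± 0.536, so the knockout mean was 71.7% of wild type. The log2 fold change was -0.39 (SE 0.17, 95% interval -0.78 to -0.01), with an unadjusted limma p of 0.0468 that did not survive adjustment over all genes (adjusted p = 0.9995). Unlike the 4 hormones whose sign turned, Chga, Chgb and Tph1 kept negative values without knockout replicate 3, at -0.21, -0.19 and -0.33.

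**Figure D2:**
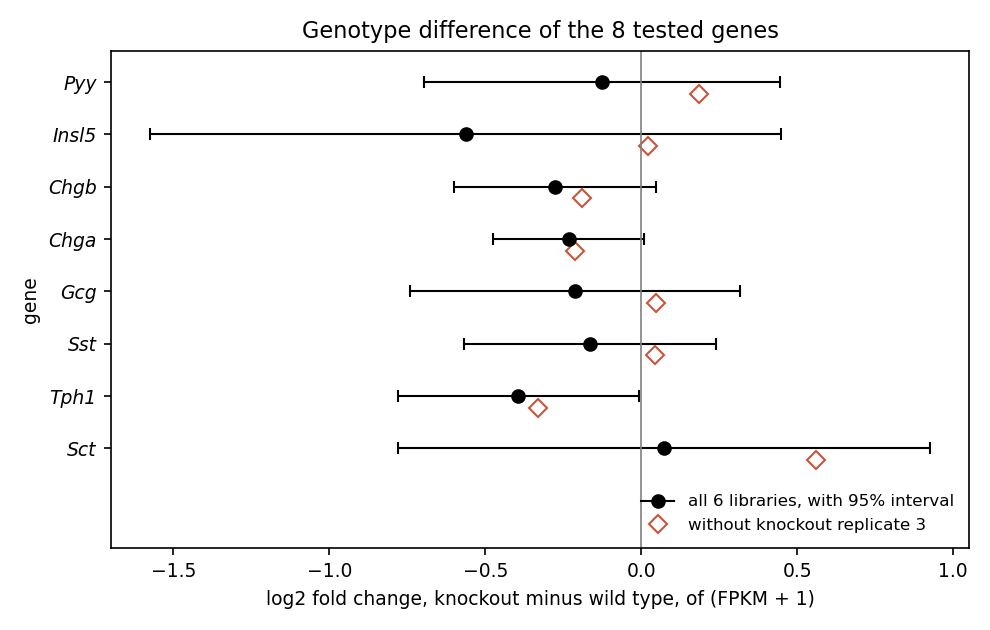
Difference of knockout minus wild type in mean log2(FPKM + 1) for the 8 tested genes, with limma's 95% interval (black) and the value without knockout replicate 3 (open red diamonds). Every interval includes 0 except that of Tph1, which ends at -0.01, and the diamonds of Pyy, Insl5, Gcg and Sst lie to the right of 0.

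Cck and Nts, hormones better known from the small intestine, were near the limit of detection. Cck, the precursor of cholecystokinin, read 0.57, 0.59 and 0.75 FPKM in wild type and 0.56, 0.82 and 0.24 in knockout, about 3 to 11 reads per library by estimate. The groups overlapped. Nts, the precursor of neurotensin, read 0.23, 0.19 and 0.23 FPKM in wild type and 0.04, 0.09 and 0.09 in knockout. Every knockout value was under every wild-type value, as for 3.72% of the 19844 genes of the table in that direction. At the estimated depths and a transcript of 1248 bases these values correspond to about 5.22, 4.2 and 5.09 reads in wild type and 0.922, 2.02 and 2.04 in knockout, so the separation rests on a few reads per library. With no filter, limma gave Nts an unadjusted p of 0.00215 and an adjusted p of 0.986, and Cck an unadjusted p of 0.492.

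By mean level the order was Pyy, Insl5, Chgb, Chga, Gcg, Sst, Tph1, Sct, Cck and Nts. Of the 9 neighbouring steps, 6 held in all 6 libraries. The other 3 steps, Insl5 over Chgb, Chga over Gcg and Tph1 over Sct, held in all 3 wild-type libraries and in 2 of 3 knockout libraries. Insl5 was under Chgb in knockout replicate 3 alone, while in knockout replicate 2 Gcg passed Chga and Sct passed Tph1. In knockout the means of Gcg and Chga differed by less than the SD of Gcg, and those of Sct and Tph1 by less than the SD of Sct.

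The libraries did not vary alike across the hormones and the granins. Knockout replicate 3 was the lowest of the 6 libraries for 8 of the 10 genes, where it was lowest for 15.6% of all genes tested. Relative to the mean of knockout replicates 1 and 2, it stood at 25.9% for Sct, 28.6% for Insl5, 34.8% for Cck, 51.9% for Pyy, 56.2% for Gcg and 62.6% for Sst. For the granins and the serotonin enzyme it was nearer, at 83.2% for Chgb, 95.7% for Chga and 85.7% for Tph1. Nts, at a few reads, went the other way, at 138%. Against the wild-type mean Tph1 did not stand apart, at 64.5% beside 64.7% for Sst, 59.2% for Pyy and 58.7% for Gcg. On that scale Chgb was at 72.0%, Chga at 82.2%, Sct at 41.4% and Insl5 at 29.3%. The ratio of Pyy to Chga was between 5.90 and 6.48 in wild type, 8.04 and 8.42 in knockout replicates 1 and 2, and 4.47 in knockout replicate 3. The 28 pairs among the 8 tested genes all had a positive Pearson r across the 6 libraries, and 15 of 28 did without knockout replicate 3.

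**Figure D3:**
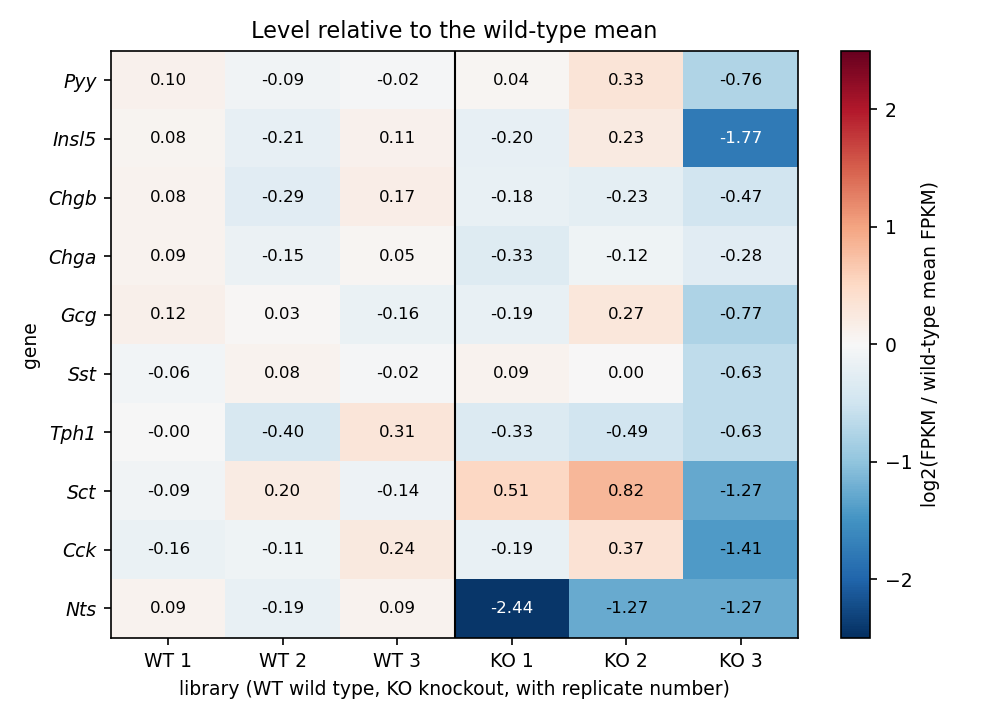
Log2 of the FPKM of each gene (rows, by falling mean level) over its wild-type mean, in each library (columns). The column of knockout replicate 3 is blue throughout, from -0.28 for Chga to -1.77 for Insl5, and the row of Nts is blue in all 3 knockout libraries.

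Markers of other cell types also differed in that library. The summed FPKM of 8 goblet cell markers was between 9919 and 12960 in wild type and was 10750, 12856 and 7553 in knockout replicates 1 to 3. Of the 8, 7 were lowest in knockout replicate 3, where 15.6% of all genes tested were lowest. Muc2, the main secreted mucin, was at 427.29 FPKM there and between 650.35 and 928.52 elsewhere. Clca1 was the 1 marker of the 8 that was lower in every knockout library. It read 2873.43, 2059.29 and 2559.42 FPKM in wild type and 1652.15, 1892.45 and 1547.10 in knockout (limma adjusted p = 0.9995). Such a separation was found for 4.14% of all genes tested. The 8 smooth muscle markers summed to between 2681 and 3663 in wild type and to 3077, 2868 and 4385 in knockout. Of these 8, 7 were highest in knockout replicate 3, where 15.7% of all genes tested were highest. Knockout replicate 3 thus held more muscle transcript. The 10 pan-epithelial markers summed to 5747 in knockout replicate 3, inside the range of the other libraries (5644 to 6805). Of these 10, 3 were lowest and 0 highest there. With each library rescaled to the same pan-epithelial sum, the log2 fold changes of Insl5 (-0.58), Pyy (-0.14) and Gcg (-0.23) were close to those without rescaling. In knockout replicates 1 to 3 the sums were 112.4%, 97.0% and 94.9% of the wild-type mean, on both sides of it. Rescaling could therefore move the group differences only slightly, and it does not test epithelial content. With it, 290 genes were at an unadjusted limma p under 0.05, against 450 without it. None of the markers in these 3 lists was at 0 in all libraries, and the part of goblet and muscle content in the hormone values was not tested.

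**Figure D4:**
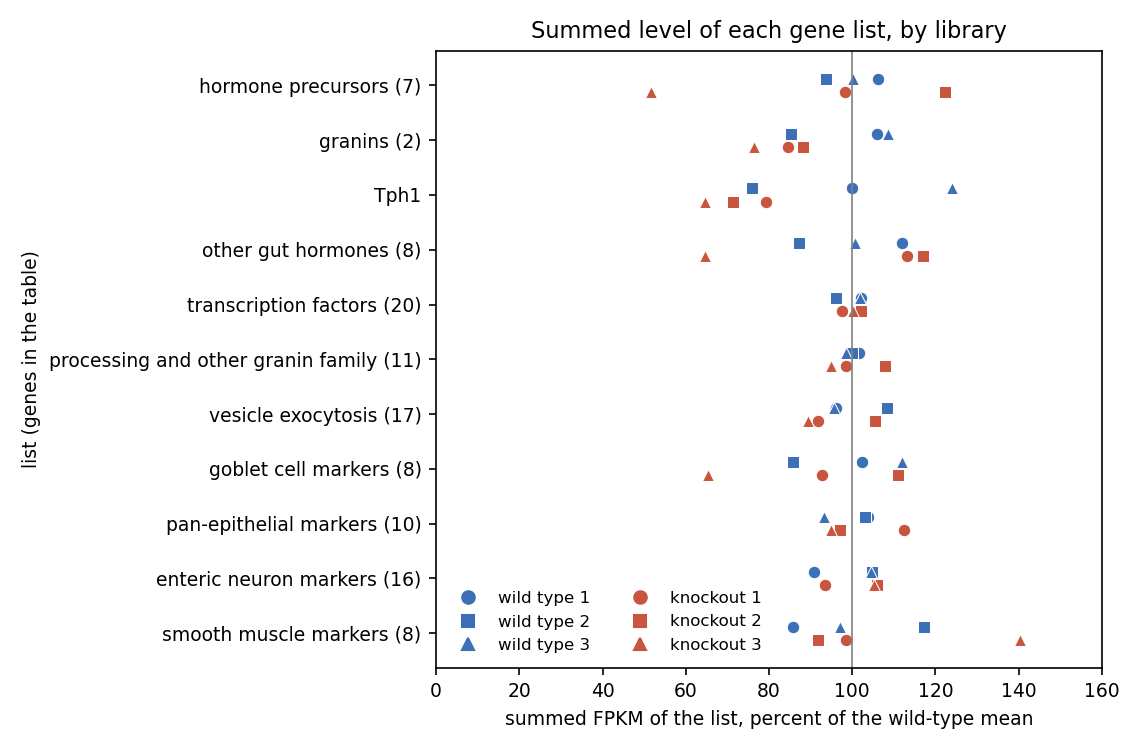
Summed FPKM of each gene list in each library as a percent of its wild-type mean (x axis from 0), wild type in blue and knockout in red, with the number of genes in parentheses. In knockout replicate 3 the hormone precursors are at 51.6% and the goblet markers at 65.3%, the granins at 76.4%, the pan-epithelial markers at 94.9% and the smooth muscle markers at 140.3%.

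Among other gut hormone genes, 8 of 10 were in the table, 4 passed the filter, and 0 were called, with 1 positive and 3 negative log2 fold changes. Ppy, the pancreatic polypeptide gene, a near neighbour of Pyy on chromosome 11, read 38.22, 22.90 and 29.92 FPKM in wild type and 31.00, 35.52 and 11.68 in knockout. Like Pyy it was lowest in knockout replicate 3, and the ratio of its FPKM to that of Pyy was between 0.0803 and 0.145. Ghrl, the ghrelin gene, read 2.31, 1.79 and 2.14 FPKM in wild type and 4.02, 3.24 and 0.15 in knockout. As for Sct, knockout replicates 1 and 2 were above every wild-type library and replicate 3 under every one. Tac1, the precursor of substance P in enterochromaffin cells and enteric neurons, read 13.89, 16.14 and 15.54 FPKM in wild type and 20.28, 17.94 and 18.01 in knockout. It was the one gene of the list with all knockout libraries above wild type (log2 fold change 0.29, SE 0.10, limma adjusted p = 0.9995), a separation shared by 4.53% of all genes tested.

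The transcription factors of the lineage that passed the filter showed no common direction. Of 20 listed, 11 passed the filter, 5 with positive and 6 with negative log2 fold changes, and 0 were called (median -0.0028 beside 0.01 over all genes). With no filter, 6 of the 20 were positive and 14 negative, and 0 were called. Their median was then -0.05 beside 0.0036 over all 19844 genes, of which 9640 were negative. Foxa1, a pioneer factor needed for L and D cells, averaged 34.2 ± 1.14 FPKM in wild type and 36.6 ± 0.439 in knockout, with all knockout libraries higher. Etv1, an ETS factor, averaged 3.58 ± 0.0404 and 3.10 ± 0.236, with all knockout libraries lower. Each was 1 of the 11 tested, beside 4.53% of all genes tested above and 4.14% below. The unadjusted limma p was 0.288 for Foxa1 and 0.183 for Etv1. Nkx2-2, a homeodomain factor of endocrine fate, read 2.40, 3.15 and 2.55 FPKM in wild type and 1.36, 2.47 and 1.98 in knockout (log2 fold change -0.35, SE 0.17). Of the 20, 6 were lowest and 2 highest in knockout replicate 3, against 15.6% and 15.7% of all genes tested. The summed FPKM of the 20 there was 89.2, or 100.2% of the wild-type mean. Most of that sum came from Foxa1 (36.38 FPKM), Foxa2 (18.49) and Sox4 (13.21), so it says little about the factors at low levels. The next genes were named after their values were seen. Neurod1 (1.31 FPKM), Pax4 (0.25) and Rfx6 (0.38), factors of early and maturing endocrine cells, were among the 6 lowest there, and Hhex (3.38), a factor of D cells, was among the 2 highest. Of the serotonin-line factors, Lmx1a, which acts upstream of Tph1, was under the filter at 0.85, 0.54 and 0.82 FPKM in wild type and 0.29, 0.50 and 0.38 in knockout. Its knockout libraries were all lower, as for 3.72% of the genes of the table. Fev, a factor of the same cells, averaged 1.61 ± 0.220 and 1.62 ± 0.170 FPKM, a log2 fold change of 0.0069.

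Genes that process and store hormones were also uncalled. Of 9 tested among the convertases, their chaperones and other granin family members, 2 had positive and 7 negative log2 fold changes (median -0.12). Scg2, a secretogranin gene, read 10.98, 10.08 and 10.70 FPKM in wild type and 10.40, 8.59 and 8.31 in knockout. Scg5, the chaperone of a prohormone convertase, was at 4.70 ± 0.304 and 3.87 ± 0.458. Pcsk1, the convertase that cuts proglucagon to the glucagon-like peptides, named after its values were seen, was at 2.06 ± 0.237 and 1.84 ± 0.423. Dense-core vesicle exocytosis genes numbered 14 tested with 4 positive and 10 negative (median -0.05). The knockout libraries were all lower for 1 of the 14, against 4.14% of genes tested, namely Ptprn, a granule membrane protein, at 3.68 ± 0.245 and 3.23 ± 0.123. Cadps, a vesicle priming gene under the filter and named for its values, was also lower in all of them, at 0.77, 0.95 and 0.88 FPKM in wild type and 0.70, 0.56 and 0.69 in knockout.

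Serotonin handling beyond Tph1 was mixed. Of 7 tested genes 2 had positive and 5 negative log2 fold changes (median -0.13), and 0 were called. Ddc, the decarboxylase that completes serotonin synthesis, averaged 34.7 ± 8.27 FPKM in wild type and 39.4 ± 4.64 in knockout. Slc6a4, the transporter that takes serotonin up, read 10.84, 9.69 and 7.36 in wild type and 4.46, 7.89 and 8.43 in knockout. Maob, a monoamine oxidase, was at 20.6 ± 3.83 and 15.0 ± 3.13 (limma adjusted p = 0.9995). Tph2, the neuronal form of the hydroxylase, was at 0.02 FPKM or listed at 0.

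Sensors and receptors were followed because they set and read hormone release. Of 18 nutrient and bile acid sensors, a list that includes Mlxipl, 7 passed the filter, 2 with positive and 5 with negative log2 fold changes, and 0 were called. Nr1h4, the bile acid receptor FXR, which is known to oppose ChREBP in L cells, read 25.64, 27.56 and 25.81 FPKM in wild type and 32.80, 32.60 and 30.62 in knockout. The groups did not overlap (log2 fold change 0.27, SE 0.09, limma adjusted p = 0.9995). It was 1 of the 7 tested sensors with all knockout libraries higher, a separation shared by 4.53% of all genes tested. Nr1h4 is made by absorptive cells as well. Ffar4, a fatty acid receptor of L cells and other epithelium, was at 19.9 ± 8.54 and 25.2 ± 6.06, and Olfr78, a receptor found in colonic endocrine cells, at 5.09 ± 0.519 and 4.15 ± 0.847. Among 26 receptors and peptidases of the hormones, 25 were in the table and 9 were tested, with 3 positive and 6 negative. Rxfp4, the receptor of insulin-like peptide 5, and Sctr, the secretin receptor, were at or under 0.09 FPKM in every library, and Dpp4, the peptidase that inactivates glucagon-like peptides, was at 11.1 ± 0.577 and 9.55 ± 1.04.

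Cells other than enteroendocrine cells can contribute to some of these genes. Enteric neurons also make somatostatin and substance P, and the summed FPKM of 16 of their markers was between 74.3 and 85.6 in wild type and between 76.5 and 86.7 in knockout. The 6 enteric glia markers summed to between 6.64 and 7.48 FPKM in wild type and to 7.12, 8.16 and 11.5 in knockout. All 6 were highest in knockout replicate 3, against 15.7% of all genes tested. Vip, a peptide of enteric neurons, was between 14.94 and 24.13 FPKM over all libraries. The 9 mast cell markers in the table, considered because mast cells can express Tph1, summed to between 23.1 and 28.7 in wild type and to 40.8, 34.4 and 16.5 in knockout, while Cpa3, a defining mast cell protease, stayed at or under 0.49 FPKM. In knockout replicate 3, 5 of the 9 were lowest and 0 highest, against 15.6% and 15.7% of all genes tested. Mcpt1 alone read 4.29, 2.66 and 7.14 FPKM in wild type and 17.12, 9.89 and 0.88 in knockout. The 7 tuft cell markers summed to between 8.07 and 9.77 in wild type and 7.23 and 9.06 in knockout. Of 11 colon position genes in the table, 6 were highest and 1 lowest in knockout replicate 3, against 15.7% and 15.6% of all genes tested. The summed FPKM of the 11 was between 396 and 438 in wild type and 338, 435 and 441 in knockout. Hoxb13, a gene of the most distal colon, where Insl5 is most abundant, was between 203.49 and 274.23 FPKM, with knockout replicate 3 at 260.19. Hoxd11 was at 20.03 FPKM there and between 10.72 and 14.69 in the other libraries, and Hoxd12 at 6.53 and between 2.62 and 5.58. Hoxd10, Hoxb6, Hoxb7 and Osr2, named after their values were seen, were also highest there. Hoxa13 was the 1 lowest, at 14.28 FPKM there and between 15.17 and 17.80 elsewhere. The list was not divided into proximal and distal genes, so its sum and counts do not place a library along the colon. The part of colon position in the hormone values was not tested.

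The genes whose pattern over the 6 libraries was most like the mean of the 8 tested genes were led by Mzb1, a plasma cell gene, with Pearson r = 0.995. It read 19.93, 14.23 and 18.89 FPKM in wild type and 13.13, 16.44 and 5.63 in knockout. Cdk2, Arl10, Ccl6, Il10rb, Hpd, Capn9 and Tmem51 followed, down to r = 0.960, out of 8976 genes searched. Without knockout replicate 3 and wild-type replicate 3, the libraries farthest from the median, the r of Mzb1 over the other 4 was 0.954 and that of Capn9 0.694. For Pyy alone and for Insl5 alone the nearest genes were St6gal1, a sialyltransferase, and Capn9, a digestive-tract calpain, each with r between 0.985 and 0.989. Without knockout replicates 2 and 3, the farthest for both, r with St6gal1 was 0.928 for Pyy and 0.708 for Insl5. With Capn9 it was 0.885 for Pyy and 0.656 for Insl5. For Chgb they were Cops4, Mctp2 and Snrpn, none of them shared with the hormones. These are the highest values of r among many genes over only 6 libraries and are given as a description.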

How the data were processed

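Distal colon poly-A RNA libraries from 3 wild-type and 3 ChREBP knockout mice were grouped by the genotype label, with replicate numbers from the titles. The authors deposited FPKM values with 2 decimals, 1 column per library, per the file headers. HISAT2, RSEM and mm39 are named in the submitters' processing notes, and no version or filter is given in the sources used here. The protocols name no step that marks strand. Of 19844 gene identifiers 19794 matched a RefSeq gene table of GRCm38.p6, and 27 symbols turned into dates were restored. No pair of libraries held identical values.

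The 13247 genes that reached 1 FPKM in 3 or more of the 6 libraries were tested on log2(FPKM + 1) with limma 3.58.1 in R 4.3.3 (two-sided, with genotype in the model and a mean-variance trend), with Benjamini-Hochberg adjustment over all of them and a threshold of 0.05. The scale understates changes of low genes. The count model foreseen for count data was not run. For depth, 350 short non-coding genes were used, of up to 150 bases, whose values step by whole reads: with a length offset of 36 bases, between 83.3% and 89.3% of the 122 to 148 values per library lay within 0.05 of a whole read. Estimated reads of a gene are FPKM times depth times the mean GENCODE length of its transcripts.

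The 10 genes and all lists were chosen with earlier results of these data known. Named genes are the 10, Mlxipl, and of each list up to 5 of highest mean level and 3 of smallest p, and the genes most like the set by Pearson r (mean of at least 5 FPKM, no predicted genes). Genes outside that rule are said to be so, except single genes given for a list's defining member or for a library's low value. Alternatives were other pseudocounts, filters, scalings and models of the spread, a replicate block, each library left out, and, chosen after the data were seen, scaling to the pan-epithelial sum. Promoter sequences are RefSeq's in GRCm38.p6, found for 10 of the 10 genes. Tables and figures were made with Python 3.11.15, numpy 2.4.6, pandas 2.3.3 and matplotlib 3.10.9.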

Additional observations from a re-analysis of the deposited data

How the results depend on the processing

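Over 18 alternatives no enteroendocrine gene and no gene of the fixed lists was called (limma, smallest adjusted p of the 8 tested genes 0.796). Chga, Chgb and Tph1 kept negative log2 fold changes in every alternative (Tph1 from -0.55 to -0.24). Without knockout replicate 3 the log2 fold changes of Pyy, Insl5, Gcg and Sst turned to 0.186, 0.022, 0.048 and 0.046. Over the libraries left out in turn they ranged from -0.35 to 0.19 for Pyy, -0.96 to 0.02 for Insl5, -0.46 to 0.05 for Gcg and -0.29 to 0.05 for Sst. Sct was at -0.23 with array weights, -0.10 without knockout replicate 1 and -0.24 without knockout replicate 2, and its range over libraries left out was -0.24 to 0.56. Of all genes tested, 2 were called, 0 with the filter of 1 FPKM in all 6 libraries, 4 with scaling to the same pan-epithelial sum, and between 0 and 1 with a library left out (1 without wild-type replicate 1). With the replicate number as a block 0 were called, with 504 genes at an unadjusted limma p under 0.05 against 450 without it. Same-numbered libraries deviated together with r of 0.27, -0.10 and 0.06, so the numbers are not taken as pairs. DESeq2 was not run because the values are FPKM. Depth limits Cck and Nts, at about 11 reads or fewer per library.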
